A study of Mus musculus with 9 samples.

Results

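The genes described here encode the voltage-gated sodium channels of sensory neurons: the α subunit genes Scn1a, Scn3a, Scn8a, Scn9a, Scn10a and Scn11a and the β subunit genes Scn2b, Scn3b and Scn4b. They were chosen by name, as the rows of the deposited count table that carry one of these symbols, and the rule used no measured value. They are 9 of 55247 genes in the table. All 9 passed the filter on low counts, which left 13200 genes for testing.

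The data are bulk mRNA sequencing of mouse dorsal root ganglia (DRG) at E18.5, shortly before birth, in 9 libraries. The wild-type group (WT, n = 3) carried no Cre. The Isl1Cre/+ group (n = 3) carried Cre recombinase in 1 copy of Isl1, a gene of postmitotic sensory neurons that other cells also use. The mutant group (Isl1Cre/+::Meis2LoxP/LoxP, n = 3) carried the same Cre together with a Meis2 gene whose exon 8, where the coding of the homeodomain that binds DNA begins, lies between LoxP sites. Mutant and Isl1Cre/+ libraries thus share the Cre allele, and WT libraries lack it. The paper counts this allele as a heterozygous deletion of Isl1, so both Cre groups also differ from WT in Isl1. The libraries of a group are numbered 1 to 3 below. The labels do not say whether each came from a separate embryo or a pool, so p-values measure only the spread between libraries.

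Voltage-gated sodium channels open when the membrane depolarizes and carry the inward current of the action potential. The α subunit forms the pore and the voltage sensor, and the β subunits, single-span membrane proteins with an immunoglobulin fold, adjust gating and bring channels to the surface. In the DRG, small nociceptive neurons are known for tetrodotoxin-resistant α subunits, and large myelinated neurons, among them the low-threshold mechanoreceptors, for the tetrodotoxin-sensitive subunits of nodes of Ranvier.

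The best-known difference between the α subunits lies in the pore loop of the first domain. An aromatic residue at one position there leaves a channel open to block by tetrodotoxin, and a serine makes it resistant. The coding stretch around that position is shown for 5 of the α subunit genes because it sets the tetrodotoxin-resistant pair Scn10a and Scn11a apart from the other 3; the grouping into nociceptor, myelinated-afferent and embryonic subunits used below does not follow this codon. The sequences are of GRCm38 with GENCODE M21 exons, each on the coding strand of its gene, and the codon at the position is in capitals.
Scn3a: atgactcaagacTACtgggagaacctttac
Scn8a: atgactcaggacTACtgggagaacttatac
Scn9a: atgactcaggacTACtgggagaacctttat
Scn10a: atgacgcaggacTCCtgggaacggctgtac
Scn11a: atgactcaagacTCCtgggagaagctttat
Each stretch of 30 bases lay within 1 coding exon. In Scn10a the codon in capitals is number 356 of the longest coding transcript, within chr9:119666372-119666401 (minus strand, exon 8), and in Scn11a it is number 358, within chr9:119805665-119805694 (minus strand, exon 9). The Scn9a stretch was at chr2:66548986-66549015 (minus strand, exon 10), that of Scn3a at chr2:65521798-65521827 (minus strand, exon 9) and that of Scn8a at chr15:100971626-100971655 (plus strand, exon 9). Scn10a and Scn11a shared the codon TCC but only 23 of the 30 bases, and Scn11a shared 27 of 30 with Scn9a and with Scn3a, both of which have TAC. Scn8a also has TAC.

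The genes also lie in groups on the chromosomes. Scn3a, Scn1a and Scn9a belong to a stretch of 1328 kb on chromosome 2 that holds 8 protein-coding genes, among them Scn2a and Scn7a. Scn10a and Scn11a are neighbours within 217 kb of chromosome 9, with no other protein-coding gene between them. Scn2b and Scn4b lie within 36.4 kb of the same chromosome, while Scn3b and, on chromosome 15, Scn8a stand apart. Only Scn9a shared exon bases with another annotated gene, 180 of 12772 on the opposite strand, 1.41% of its merged exons.

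Libraries held 23854607 to 29103444 counts. The Meis2 signal matched the genotype labels, at 40.9 ± 0.246 CPM (counts scaled to a common library size; SD, n = 3) in the mutants, against 95.7 ± 6.33 with the Cre allele alone and 103 ± 7.25 without it. This is a log2 fold change of -1.33 against WT (edgeR adjusted p = 0.00779) and of -1.23 against Isl1Cre/+ (edgeR adjusted p = 0.00215). Isl1 stood at 262 ± 30.4 CPM in WT, 186 ± 19.1 with the Cre allele alone and 188 ± 24.6 in the mutants. Against WT it met the call criterion as lower, at a log2 fold change of -0.483 in Isl1Cre/+ and -0.479 in the mutant. Neither passed an adjusted p under 0.05 in edgeR. Libraries mutant 2 and WT 1 stood somewhat apart: their median Spearman correlation with the other libraries was 0.979 and 0.981, against 0.991 to 0.995 for the remaining 7. Skeletal muscle markers (Acta1, Actc1, Myh3, Myh8, Myog and Ckm) summed to 1767 CPM in mutant 2 and to 51.9 to 764 CPM elsewhere. All 5 that were tested met the call criterion as lower in Isl1Cre/+ than in WT and higher in the mutant than in Isl1Cre/+, and their part in the values below was not tested. Markers of spinal cord neurons (7 genes, none with enough counts to be tested) were low in every library, but their sums did not overlap between genotypes, at 2.65 to 3.99 CPM in the WT libraries, 0.106 to 0.322 with the Cre allele alone and 0.489 to 2.22 in the mutants. Pan-neuronal markers (Tubb3, Elavl3, Elavl4, Snap25, Prph, Stmn2 and Rbfox3) summed to 6668 to 9169 CPM and none was called. The sympathetic neuron markers Th and Dbh were both called, Th as lower in mutant than in WT, and Dbh as lower in Isl1Cre/+ than in WT and higher in mutant than in Isl1Cre/+. Of 4 endothelial markers, Kdr and Pecam1 were called as higher in Isl1Cre/+ than in WT, and Kdr as lower in mutant than in Isl1Cre/+. The part of these cell types in the values below was not tested either. Of all genes tested, 0.318% were called in mutant versus WT, 1.67% in mutant versus Isl1Cre/+ and 1.40% in Isl1Cre/+ versus WT.

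Among the 9 members the highest transcripts were those of the α subunits known from nociceptors and of the β subunit gene Scn3b. Levels are given as CPM, with TMM-scaled library sizes, divided by the kilobases of merged exons of the gene, as the mean ± SD of 9 libraries. Scn10a, whose channel Nav1.8 carries much of the nociceptor's action potential, was highest at 138 ± 10.9. Scn11a, whose channel Nav1.9 gives a persistent current near rest, stood at 70.5 ± 8.69. Scn3b stood at 62.9 ± 2.34 and Scn9a, whose channel Nav1.7 amplifies small depolarizations, at 59.7 ± 6.63. These 4 genes were between 49.9 and 151 in every library, and no other member passed 26.7.

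The remaining members stood lower on this scale. Scn2b, a β subunit that binds α subunits through a disulfide bond, stood at 25.1 ± 1.43. Scn8a, the main α subunit of mature nodes of Ranvier, stood at 8.53 ± 0.955 and Scn1a, found in myelinated afferents, at 7.76 ± 0.398. Scn4b, a β subunit linked to resurgent current, stood at 6.94 ± 0.557. Lowest was Scn3a, the α subunit best known from the embryonic nervous system, at 4.27 ± 0.504.

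**Figure D1:**
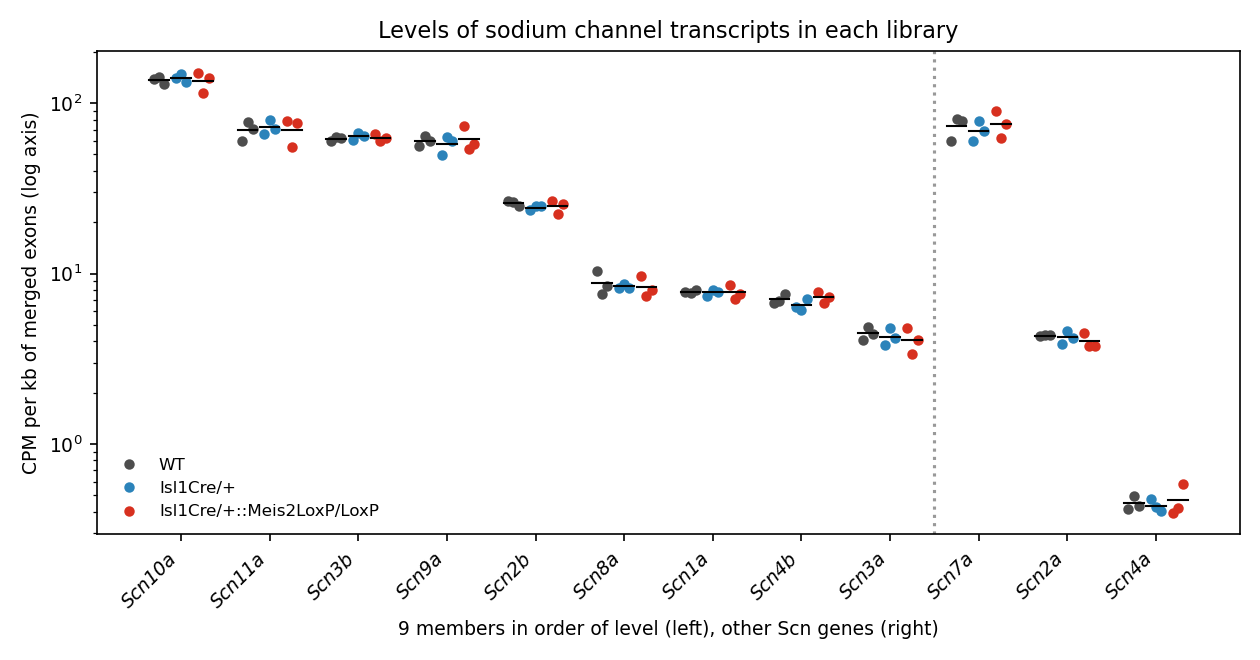
Level of each sodium channel gene in each library, in CPM per kilobase of merged exons, on a log axis, for the 9 members in order of level and for 3 other Scn genes; points are libraries coloured by genotype and bars are group means (n = 3). Scn10a was highest in all 9 libraries, from 115 to 151, and the 3 genotypes overlapped for every gene.

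Neighbours in this order were compared within libraries. The ratios are given as a description, with no test, because the order that set the pairs came from the same libraries. Scn10a exceeded Scn11a by 1.96-fold on average (1.82 to 2.32, 9 of 9 libraries). Scn11a was above Scn3b in 7 of 9 libraries, at a mean ratio of 1.11 and a range of 0.921 to 1.22. Scn3b was above Scn9a in 7 of 9, at a mean ratio of 1.06 and a range of 0.9 to 1.22. These 3 genes therefore lay close together, with ranges that overlap, and their order depended on the length used.

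Below them Scn9a was 2.37-fold above Scn2b, and Scn2b 2.95-fold above Scn8a, each in 9 of 9 libraries. Scn8a was 1.09-fold above Scn1a in 8 of 9 libraries, and Scn1a 1.12-fold above Scn4b in 9 of 9, both pairs with overlapping ranges of level. Scn4b was 1.63-fold above Scn3a in 9 of 9 libraries. With the longest transcript in place of merged exons the order at the top became Scn10a, Scn3b, Scn9a, Scn11a. With coding length alone, which is short for β subunit genes, it became Scn3b, Scn10a, Scn2b, Scn9a, Scn11a, Scn4b, Scn8a, Scn1a, Scn3a.

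As shares of the summed level of 8 α subunit genes (Scn1a, Scn2a, Scn3a, Scn4a, Scn8a, Scn9a, Scn10a and Scn11a), Scn10a held 47.0 ± 1.62% (SD over 9 libraries), Scn11a 24.0 ± 1.42% and Scn9a 20.4 ± 1.34%. The 3 nociceptor α subunits together held 91.4 ± 0.487%, and the tetrodotoxin-resistant pair Scn10a and Scn11a 71.0 ± 1.51%. The pair of myelinated afferents, Scn1a and Scn8a, held 5.58 ± 0.437%. By genotype, the nociceptor trio held 91.1 ± 0.767% in WT, 91.5 ± 0.114% in Isl1Cre/+ and 91.5 ± 0.437% in mutant libraries. The resistant pair held 59.1% with coding length and 67.8% with the longest transcript, and the nociceptor trio 87.6% and 90.1%. Scn7a, at 72.7 ± 10.5 on the merged-exon scale, was left out of the summed level. The shares are thus of these 8 genes only and would be lower with Scn7a counted. Of the summed level of the 3 β subunit genes described here, Scn3b held 66.3 ± 1.19%, Scn2b 26.4 ± 1.02% and Scn4b 7.31 ± 0.516%.

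The question the genotypes pose is whether loss of Meis2, or the Cre allele alone, changed any of these transcripts. No member was called in any comparison. A gene was called at a fold change of 1.2 or more with an unadjusted p under 0.05 in edgeR's quasi-likelihood test. By this criterion 0 of 9 members were called in mutant versus WT, where 0.318% of the genes tested were, 0 of 9 in mutant versus Isl1Cre/+, against 1.67%, and 0 of 9 in Isl1Cre/+ versus WT, against 1.40%. With shares this low, a count of 0 among 9 genes is near the background. With all libraries in the fit, no member had an unadjusted p under 0.05 by edgeR, DESeq2 or limma voom. At an adjusted p under 0.05 the shares of all genes were 0.00758%, 0.00758% and 0% in the same order, and all 27 adjusted p of the members were 1. In no member did the 3 libraries of one group lie outside those of another, which held for 2.76%, 7.65% and 6.08% of all genes tested.

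The intervals give the range of change compatible with these libraries. The standard errors of the 27 log2 fold changes ran from 0.0675 to 0.164, and the 95% intervals, taken over all members and comparisons, from 0.731-fold to 1.335-fold. Larger changes than these in the whole ganglion lie outside the intervals, while changes of the criterion's own size, 1.2-fold, lie inside many of them. In bulk samples, fewer cells of a type and less RNA per cell cannot be told apart. The median log2 fold change of the 9 members was -0.013 in mutant versus WT, -0.002 in mutant versus Isl1Cre/+ and -0.046 in Isl1Cre/+ versus WT, beside -0.009, 0.000 and -0.002 over all genes tested.

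**Figure D2:**
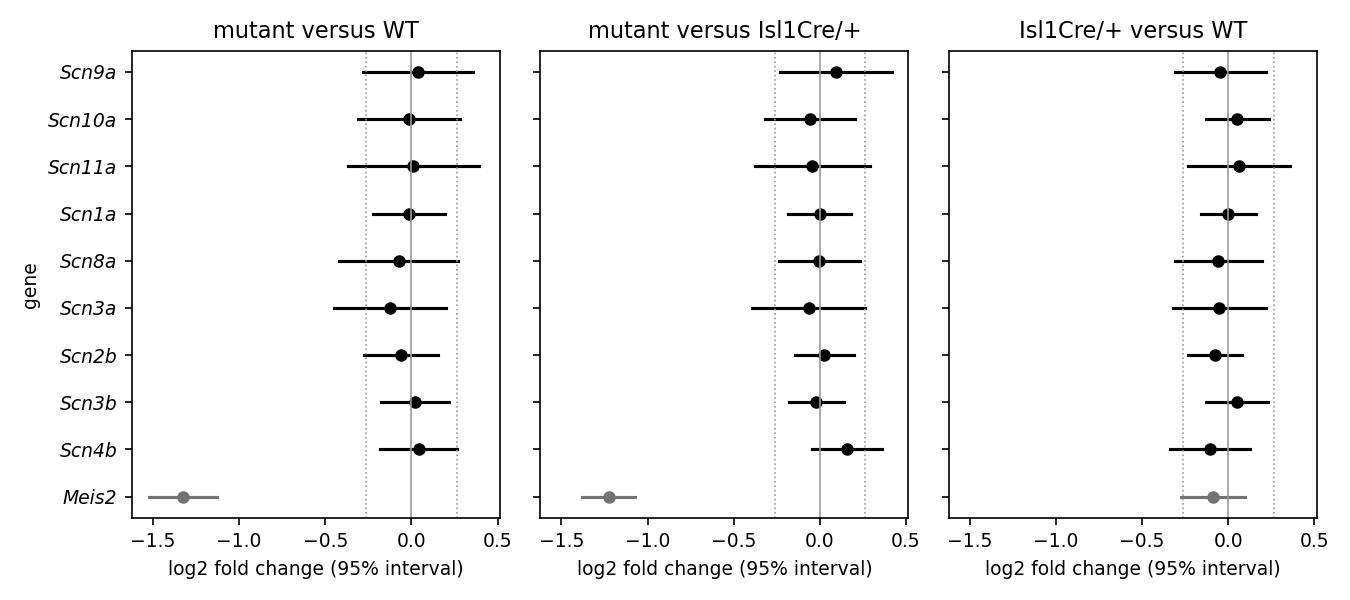
Log2 fold change with its 95% interval (edgeR) for the 9 members and for Meis2, in the 3 comparisons; dotted lines mark a fold change of 1.2 in either direction. All 27 intervals of the members span 0, between a lowest estimate of -0.125 and a highest of 0.159, while Meis2 stands at -1.33 and -1.23 in the mutant.

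Among the α subunits of nociceptors, Scn10a measured 1101, 1142 and 1028 CPM in the WT libraries, 1124, 1177 and 1064 with the Cre allele alone, and 1206, 916 and 1114 in the mutants. The mutant group held both the highest and the lowest library, with the WT and Isl1Cre/+ values between them. Its log2 fold change was -0.015 ± 0.126 (SE) in mutant versus WT and -0.057 ± 0.111 in mutant versus Isl1Cre/+, with 95% intervals of 0.806-fold to 1.215-fold and 0.803-fold to 1.152-fold.

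Scn11a measured 354, 462 and 420 CPM in the WT libraries, 394, 473 and 416 with the Cre allele alone, and 466, 328 and 452 in the mutants. Again mutant 2 was lowest of the 9, and WT 1 was next. In mutant versus WT its log2 fold change was 0.012 ± 0.164, with the widest interval of the members in that comparison, 0.773-fold to 1.315-fold. In mutant versus Isl1Cre/+ it was -0.043 ± 0.142.

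Scn9a measured 718, 815 and 765 CPM in the WT libraries, 637, 805 and 767 with the Cre allele alone, and 933, 690 and 735 in the mutants. The highest library, mutant 1, and the lowest, Isl1Cre/+ 1, fell in the 2 groups that share the Cre allele. Against WT the mutant differed by 0.038 ± 0.136 on the log2 scale (0.824-fold to 1.279-fold) and against Isl1Cre/+ by 0.094 ± 0.138 (0.853-fold to 1.335-fold). Of 8 nociceptor markers tested beside these subunits, Trpv1, the capsaicin receptor, met the criterion as lower in mutant than in WT, at a log2 fold change of -0.395, and no other marker was called in any comparison. Among all genes tested, 0.318% were called in mutant versus WT, 1.67% in mutant versus Isl1Cre/+ and 1.40% in Isl1Cre/+ versus WT. In the last 2 of these, a count of 0 among 8 markers is near the background. In mutant versus WT 4 of the 8 estimates were above 0 and 4 below, with a median of -0.008 beside -0.009 over all genes tested, and the highest was 0.185 for Calca, the gene of the neuropeptide CGRP.

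The α subunits of myelinated afferents are of interest because Meis2 is known from low-threshold mechanoreceptors. Scn8a measured 163, 120 and 133 CPM in the WT libraries, 130, 137 and 130 with the Cre allele alone, and 153, 117 and 127 in the mutants. One WT library, WT 1, was the highest of the 9 and spread that group to a coefficient of variation of 15.9%, against 2.96% in Isl1Cre/+. A log2 fold change of -0.073 ± 0.148 in mutant versus WT became 0.059 without WT 1 and -0.193 without mutant 1. Against Isl1Cre/+ it was -0.002 ± 0.1, with an interval of 0.849-fold to 1.174-fold.

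Scn1a measured 86.6, 85.5 and 89.0 CPM in the WT libraries, 82.5, 89.7 and 86.8 with the Cre allele alone, and 94.8, 79.5 and 84.4 in the mutants. The group means were 87.0, 86.3 and 86.2 CPM. Estimates of -0.013 ± 0.0895 in mutant versus WT and of -0.001 ± 0.0774 in mutant versus Isl1Cre/+, on the log2 scale, had intervals of 0.857-fold to 1.146-fold and 0.881-fold to 1.133-fold. No marker of large-fibre neurons, of 8 tested, was called in any comparison.

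Scn3a, the embryonic α subunit, measured 50.9, 60.5 and 54.9 CPM in the WT libraries, 47.4, 59.9 and 52.2 with the Cre allele alone, and 59.6, 41.9 and 51.0 in the mutants. It had the lowest estimate of the members, a log2 fold change of -0.125 ± 0.14 in mutant versus WT (0.731-fold to 1.150-fold). The estimate moved with several libraries: it was 0.016 without mutant 2, -0.058 without WT 2, -0.183 without WT 1 and -0.256 without mutant 1, with no call in any of these settings.

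Among the β subunits, Scn3b was the steadiest member, with 328, 347 and 341 CPM in the WT libraries, 332, 363 and 349 with the Cre allele alone, and 359, 328 and 343 in the mutants. Its highest library was 1.11-fold above its lowest. Mutant libraries differed by 0.020 ± 0.0854 on the log2 scale from WT and by -0.020 ± 0.0675 from Isl1Cre/+, the latter with an interval of 0.884-fold to 1.100-fold. Scn2b measured 124, 122 and 116 CPM in the WT libraries, 110, 116 and 116 with the Cre allele alone, and 124, 104 and 119 in the mutants. It differed by -0.063 ± 0.0916 on the log2 scale between mutant and WT and by -0.077 ± 0.0679 between Isl1Cre/+ and WT.

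Scn4b came nearest to a call. It measured 33.3, 34.3 and 37.8 CPM in the WT libraries, 31.5, 30.4 and 35.3 with the Cre allele alone, and 38.7, 33.3 and 36.4 in the mutants. Isl1Cre/+ 1 and 2 were the lowest of the 9, but Isl1Cre/+ 3 lay within the mutant range. In mutant versus Isl1Cre/+ its log2 fold change was 0.159 ± 0.0862 (0.971-fold to 1.284-fold, edgeR adjusted p = 1), the highest of the members, and in mutant versus WT it was 0.042 ± 0.095. Without Isl1Cre/+ 3 the first of these was 0.225, without mutant 2 it was 0.220 and without mutant 1 it was 0.103. With Isl1Cre/+ 3 or mutant 2 left out, and in no other run for any member, the unadjusted p fell under 0.05, with the fold still under 1.2.

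Within the mutant group the members lay high or low together. All 9 were higher in mutant 1 than in mutant 2, by 1.09-fold for Scn3b to 1.42-fold for Scn3a and by a median of 1.31-fold, while over all genes tested the median ratio was 0.999. Mutant 2 was the lowest of the 9 libraries for 6 members and among the lowest 2 for 8. Mutant 1 was the highest for 4 members and among the highest 2 for 8. The median coefficient of variation of the members was 13.7% within the mutant group against 8.09% over all genes tested, and 6.3% and 5.06% in WT and Isl1Cre/+ against 11.3% and 6.43%.

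Marker sums also differed between these libraries. The pan-neuronal list summed to 8307 CPM in mutant 1, 6668 in mutant 2 and 7235 in mutant 3. Nociceptor markers summed to 1736, 1474 and 1627 CPM and large-fibre markers to 3302, 2484 and 2636 CPM in the same libraries. Fibroblast markers ran the other way, at 1872, 3504 and 2995 CPM, as did endothelial ones, at 209, 334 and 281 CPM. The 9 members summed to 3435, 2638 and 3060 CPM there, in the order of the 3 neuronal lists. Abundant genes weigh most in the list sums. In the mutants the large-fibre list held Nefh at 1264 ± 348 CPM, Ret at 666 ± 67.7 and Ntrk2 at 203 ± 5.93 (SD). The pan-neuronal list held Stmn2 at 2718 ± 233 and Prph at 2035 ± 314 CPM. A sum thus need not follow the other genes of its list. In the WT libraries the members summed to 2958, 3188 and 2984 CPM, nociceptor markers to 1589, 1600 and 1567, pan-neuronal markers to 9169, 7424 and 7020, and large-fibre markers to 3413, 2683 and 2896. WT 2 was thus highest for members and nociceptor markers, and WT 1 for the other 2 lists. In the Isl1Cre/+ libraries the members summed to 2889, 3253 and 3017 CPM, pan-neuronal markers to 7590, 7806 and 7557, nociceptor markers to 1547, 1668 and 1708, and large-fibre markers to 2710, 2718 and 2798. Isl1Cre/+ 2 was highest for members and pan-neuronal markers, and Isl1Cre/+ 3 for the other 2 lists. The part of these cell types in the spread of the sodium channel genes was not tested. Without mutant 2, the 9 log2 fold changes ran from 0.016 to 0.175 against WT and from 0.019 to 0.220 against Isl1Cre/+, so that all 18 were positive. Without mutant 1 the shift was the other way: all 9 were negative against WT, from -0.256 for Scn3a to -0.010 for Scn4b, and 8 of 9 were negative against Isl1Cre/+, from -0.198 to -0.029, with Scn4b at 0.103. No member was called in either setting. Without WT 1 they ran from -0.183 to 0.059 in mutant versus WT and from -0.164 to 0.050 in Isl1Cre/+ versus WT, again with no call.

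**Figure D3:**
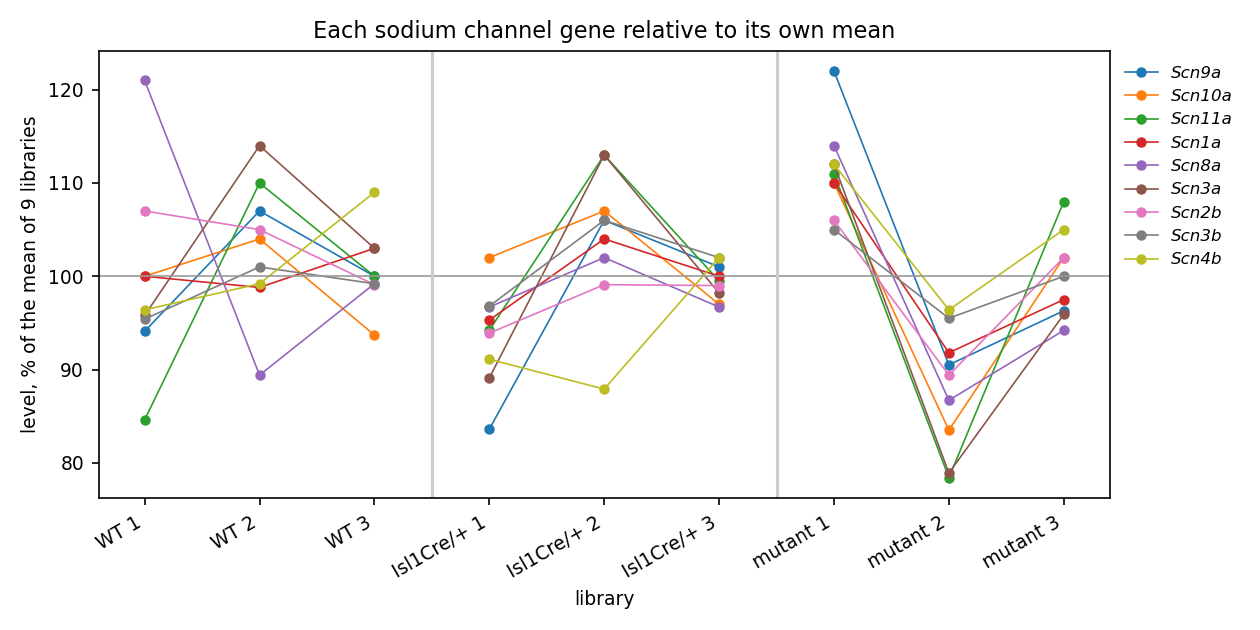
Level of each member in each library as a percentage of that gene's mean over the 9 libraries; colours are genes, and the lines only join the points of one gene within a genotype. In mutant 2 all 9 genes lie under 100%, from 78.4% for Scn11a to 96.4% for Scn4b, and in mutant 1 all lie above it, from 105% to 122%.

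Pairwise correlations of log2 CPM over the 9 libraries describe the same pattern. Of 36 pairs of members 35 were above 0, with a median Pearson r of 0.649. The highest was that of Scn11a with Scn3b, at 0.883, and the lowest that of Scn10a with Scn4b, at -0.00336. The points of every pair are the same 9 libraries.

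Beyond the family, the gene whose log2 CPM followed each member most closely over the 9 libraries was picked by Pearson r from all 13200 genes tested. The highest of so many correlations over 9 points is high by selection alone, and its chance level was not computed, so the matches are a description only. They were Nrcam for Scn1a (0.943), Dlgap1 for Scn3a (0.981), Map1a for Scn8a (0.976), Ankrd12 for Scn9a (0.965), Exoc1 for Scn10a (0.961) and Klf7 for Scn11a (0.957). Among the β subunits they were Sync for Scn2b (0.966), Fig4 for Scn3b (0.971) and Cntn3 for Scn4b (0.92).

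Related genes put the members in context. Scn7a, an atypical relative on chromosome 2 that is not opened by voltage in the usual way, stood at a level of 72.7 ± 10.5 CPM per kilobase, close to Scn11a. Nalcn, the sodium leak channel, stood at 7.35 ± 0.533 and Scn2a, of central axons, at 4.18 ± 0.313, close to Scn3a. Scn4a, the α subunit gene of skeletal muscle, stood at 0.449 ± 0.0598. None of these 4 was called in any comparison by edgeR. Beside them, 0.318% of all genes tested were called in mutant versus WT, 1.67% in mutant versus Isl1Cre/+ and 1.40% in Isl1Cre/+ versus WT. At these shares a count of 0 among 4 genes is near the background. The log2 fold changes of the 4 lay between -0.116, for Scn2a in mutant versus WT, and 0.138, for Scn7a in mutant versus Isl1Cre/+.

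A further list took in genes of proteins that anchor, traffic or modify the channels, or that belong to the axon at and beside nodes. It held 17 genes, all tested: the axonal scaffold and adhesion genes Ank3, Sptbn4, Nfasc, Nrcam, Cntn1, Cntnap1 and Cntnap2, the intracellular fibroblast growth factor homologues Fgf11, Fgf12, Fgf13 and Fgf14, and S100a10, Nedd4, Nedd4l, Dpysl2, Pdzd2 and Tmem233. In mutant versus WT 0 of 17 were called in either direction, beside 0.318% of all genes tested, with a median log2 fold change of -0.015, a lowest value of -0.187 for Sptbn4, the spectrin of nodes, and a highest of 0.159 for Tmem233. In mutant versus Isl1Cre/+ 0 of 17 were called (median -0.027), beside 1.67% of all genes, from -0.126 for Nfasc to 0.209 for Dpysl2. In Isl1Cre/+ versus WT 0 of 17 were called (median 0.021), beside 1.40% of all genes, from -0.271 for Dpysl2, whose protein CRMP2 governs trafficking of Nav1.7, to 0.173 for Fgf14. At these shares a count of 0 among 17 genes is near the background.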

How the data were processed

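DRG libraries were prepared from poly(A) RNA with molecular identifiers (UMIs). Per the submitters' processing notes and the methods, the authors aligned reads with STAR 2.7.10 to GRCm38, removed duplicates by UMI and made raw counts per gene with HTSeq 0.6. A count thus stands for an aligned read with its own UMI. The deposited table also holds log2 fold changes, p-values and a score from the authors' own comparisons, which were not used. Groups followed the genotype labels. Genes with at least 100 counts in 1 or more of the 9 libraries were kept, and each pair of genotypes was fitted alone with edgeR 4.0.16 (TMM, quasi-likelihood test, two-sided, Benjamini-Hochberg adjustment). The test was checked on simulated counts. DESeq2 1.42.0 and limma 3.58.1 (voom) served as alternatives. Counts were divided by merged exon length only to compare genes. Exons, positions and coding sequence came from GENCODE M21 (GRCm38). R 4.3.3, Python 3.11.15 and scipy 1.17.1 were used. The text names all members, Meis2, Isl1, 4 related genes, partners at the ends of their range, and the closest gene of each member by correlation. Members and lists were chosen with earlier results of these data known. Named marker genes other than these were named because they were called, define their list or stand at the end of its range. Some further genes and 1 sequence are not reported here.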

Additional observations from a re-analysis of the deposited data

How the results depend on the processing

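No member was called under any alternative, and the values of all 27 log2 fold changes over all settings ran from -0.256 to 0.225. Of 378 member values under alternatives 52 changed sign, 43 of them with a library left out, and none of the 52 was larger than 0.111 in size. These estimates lie near 0, so their signs carry no result.

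Without the filter on low counts the log2 fold changes in mutant versus WT were 0.011 for Scn1a and 0.009 for Scn10a, and in Isl1Cre/+ versus WT 0.012 for Scn1a, which was 0.025 there with library size only. In mutant versus Isl1Cre/+ Scn1a and Scn8a were both 0.003 with DESeq2 size factors and again both 0.003 with the DESeq2 test, and Scn1a was 0.001 with 100 counts in every library.

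With each library left out in turn, the log2 fold changes that changed sign had these lowest and highest values. In mutant versus WT they were -0.193 to 0.059 for Scn8a, -0.104 to 0.144 for Scn9a, -0.087 to 0.175 for Scn11a, -0.013 to 0.073 for Scn3b, -0.103 to 0.111 for Scn10a, -0.087 to 0.063 for Scn1a, -0.010 to 0.118 for Scn4b, -0.256 to 0.016 for Scn3a and -0.115 to 0.028 for Scn2b. In mutant versus Isl1Cre/+ they were -0.051 to 0.186 for Scn9a, -0.078 to 0.061 for Scn1a, -0.198 to 0.064 for Scn3a, -0.124 to 0.088 for Scn8a, -0.137 to 0.108 for Scn11a, -0.056 to 0.019 for Scn3b, -0.029 to 0.101 for Scn2b and -0.147 to 0.055 for Scn10a. In Isl1Cre/+ versus WT they were -0.144 to 0.050 for Scn8a, -0.055 to 0.162 for Scn11a, -0.148 to 0.029 for Scn3a, -0.116 to 0.051 for Scn9a and -0.031 to 0.035 for Scn1a.

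The number of all genes called in mutant versus WT, mutant versus Isl1Cre/+ and Isl1Cre/+ versus WT, 42, 221 and 185, became 408, 1028 and 845 without the filter, and 1, 1 and 0 at an adjusted p under 0.05 (edgeR). With 100 counts in every library it was 134 in mutant versus Isl1Cre/+ and 108 in Isl1Cre/+ versus WT. With a library left out it ran from 40 to 132, from 167 to 407 and from 102 to 340, with the top of the range without WT 1, mutant 1 and WT 1. The cause was not tested. The order of the members by level kept 2 of 9 ranks with coding length.

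With the replicate block 31, 177 and 236 genes and 0 members were called. Deviations of same-numbered libraries from their group means correlated between -0.569 and 0.385 (0.171 to 0.320 for number 3), so the numbers were not taken to pair the libraries. Of 18 comparisons of a library with another group, 6 had the highest correlation at the same number.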

Other observations

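A search of promoter windows for TGACAG, the core bound by Meis proteins, on either strand, found 0 matches in the 8 windows given for 7 of the 9 members (RefSeq, GRCm38.p6, 250 bases before to 50 after each start), against 6300 of 32851 windows, or 19.2%, over all genes. Scn3a and Scn3b had no entry in this set. The search says only that these letters are not in the windows.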
